A study of Mus musculus with 8 samples.

Results

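Vimentin (Vim), the hyaluronan receptor Cd44, the transcriptional co-activators Yap1 and Taz (gene Wwtr1), the DNA-binding factor Tead2, the LIM-domain protein Ajuba and the angiomotin-family protein Amotl2 were followed in mouse small cell lung cancer cells grown at 3 body sites. The 7 genes were found by symbol among the 22056 genes of the count matrices. The samples were 8 tumours grown from N2N1G, a cell line of this mouse cancer, with 2 grown in the brain, 3 in the liver and 3 under the skin. All grafts started from the same number of cultured cells of this 1 line and were harvested after 3 weeks, and single cells were sorted before 10x Genomics 3' library preparation. Cells went into the brain and the subcutis by direct injection and into the liver through the tail vein, so site and route cannot be told apart for the liver. The strain, sex and age of the host mice are not given in the sources used here, nor is it stated whether a sample is 1 mouse, so that p-values measure the spread between these samples.

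A cell was taken as a tumour cell where the UMIs (unique molecular identifiers, 1 per captured transcript) of the eGFP label and of Mycl made up at least 0.2% of its UMIs. It was taken as a host cell below 0.05%. Of 38460 deposited barcodes, 36797 passed the quality limits, and of these 34719 were tumour cells, 1370 were host cells and 708 lay between. Tumour cells gave 21689091 to 62047017 UMIs per sample. A level is given in CPM, the usual counts-per-million scale over all UMIs of the summed cells. Host cells were unevenly spread, with 779 and 282 in the brain samples, 15, 55 and 23 in the liver samples and 191, 14 and 11 in the subcutaneous samples. The 10 tumour markers checked (eGFP, Mycl and neuroendocrine genes) were all detected in the tumour cells of every sample. For eGFP and Mycl this follows from the tumour cell limit, which reads them, and is no check. Of the 38460 barcodes, 882 occurred in more than 1 sample. Subcutaneous replicate 1 stood apart from the other subcutaneous samples for several of the 7 genes, and results that rest on it are given without it.

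Small cell lung cancer is mostly neuroendocrine, and the neuroendocrine cells of this cancer are known for low Yap1 and Taz, whereas non-neuroendocrine cells carry Yap1, vimentin and Cd44. In the Hippo pathway the kinases Lats1 and Lats2 keep Yap1 and Taz out of the nucleus. When the kinases are idle, Yap1 and Taz enter the nucleus and switch on genes through the Tead factors, which bind DNA. Angiomotins hold Yap1 and Taz in the cytoplasm, Amotl2 is itself a target gene of Yap1 and Taz, and Ajuba and its relatives restrain the Lats kinases.

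By the GENCODE M21 annotation of assembly GRCm38 (mm10), Vim lies at chr2:13573927-13582826 on the plus strand and Cd44 at chr2:102811141-102901665 on the minus strand. Wwtr1 lies at chr3:57455649-57575910 on the minus strand, Yap1 at chr9:7931999-8004596 on the minus strand and Tead2 at chr7:45215753-45233644 on the plus strand. Ajuba lies at chr14:54567472-54577558 on the minus strand and Amotl2 at chr9:102716672-102733418 on the plus strand. All are protein-coding genes.

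The core letters that Tead factors bind are GGAATG, or CATTCC when read on the other strand. These letters were searched on both strands in the 250 bases before each RefSeq transcription start (GRCm38.p6). They occurred before 4 of the 7 genes, Wwtr1, Yap1, Ajuba and Amotl2, and not in the windows of Vim, Cd44 and Tead2. Over the 32851 windows of this length in the table, 12.6% held them. The 4 windows are shown because they place the Tead letters beside the genes of the pathway itself. Sequences run 5′ to 3′ on the strand of the gene, the match is in capitals, and the last base is the one before the start.
Amotl2 (chr9:102717554-102717803, plus strand): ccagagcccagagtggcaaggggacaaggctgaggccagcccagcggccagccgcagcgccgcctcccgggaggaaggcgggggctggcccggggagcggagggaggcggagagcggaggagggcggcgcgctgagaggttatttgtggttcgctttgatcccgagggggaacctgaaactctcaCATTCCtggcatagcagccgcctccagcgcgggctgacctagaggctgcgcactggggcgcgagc
Ajuba (chr14:54577662-54577911, minus strand): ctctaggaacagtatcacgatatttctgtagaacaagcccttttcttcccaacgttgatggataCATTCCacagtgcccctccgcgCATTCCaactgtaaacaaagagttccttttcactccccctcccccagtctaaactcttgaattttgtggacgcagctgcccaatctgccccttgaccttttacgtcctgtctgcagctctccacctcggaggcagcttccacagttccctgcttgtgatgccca
Wwtr1 (chr3:57575911-57576160, minus strand): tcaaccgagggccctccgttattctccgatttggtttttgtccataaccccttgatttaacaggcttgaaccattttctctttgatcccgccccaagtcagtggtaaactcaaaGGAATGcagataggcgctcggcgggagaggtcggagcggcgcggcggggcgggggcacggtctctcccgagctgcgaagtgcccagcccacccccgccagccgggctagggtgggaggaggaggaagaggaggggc
Yap1 (chr9:8004597-8004846, minus strand): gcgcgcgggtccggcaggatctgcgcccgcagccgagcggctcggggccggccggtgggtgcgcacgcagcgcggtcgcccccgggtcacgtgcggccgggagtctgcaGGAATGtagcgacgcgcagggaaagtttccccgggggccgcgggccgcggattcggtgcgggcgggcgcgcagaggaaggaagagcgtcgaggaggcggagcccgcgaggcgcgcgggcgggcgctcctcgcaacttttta
The first letter of the match lay 65 bases before the start for Amotl2, 186 and 164 for Ajuba, 136 for Wwtr1 (170 before its other RefSeq start) and 141 for Yap1. RefSeq starts need not match the GENCODE positions above. The Amotl2 window lies inside its GENCODE gene, and the Ajuba window does not adjoin its GENCODE gene. A match describes the letters in the window and is not a measured binding site.

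The 7 genes fell into very different ranges in tumour cells. Vim, an intermediate filament protein of mesenchymal cells, was at 5.35 and 1.68 CPM in brain replicates 1 and 2. In the 3 liver samples Vim was at 0.405, 1.21 and 0.842 CPM, and in the 3 subcutaneous samples at 5.61, 0.580 and 0.385 CPM. Brain replicate 1 and subcutaneous replicate 1 were the high samples, and the brain range lay above the liver range but overlapped the subcutaneous one. Cd44 was at 1.57 and 1.68 CPM in the brain samples, 0.466, 0.481 and 0.281 in the liver samples and 2.18, 0.661 and 0.713 in the subcutaneous samples. The liver samples were the lowest for Cd44 and did not overlap either other site.

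The co-activators were near the floor of detection. Wwtr1 was at 0.415 and 0.284 CPM in the brain samples, 0.020, 0.063 and 0.043 in the liver samples and 0.504, 0.129 and 0.058 in the subcutaneous samples. In the liver samples these levels are 1, 3 and 2 UMIs, so that the order within the liver cannot be read. Yap1 had 0 to 5 UMIs per sample. Its highest level was 0.129 CPM in brain replicate 2, with an exact Poisson 95% interval of 0.042 to 0.301. In subcutaneous replicate 3 no Yap1 UMI was found among 51902654 UMIs, where 3 UMIs would be 0.058 CPM. Ajuba had 1 or 2 UMIs in every sample, 0.016 to 0.092 CPM. Differences of Yap1 and Ajuba between sites were not detectable at this depth. Intervals and floors cover counting error only.

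Tead2 and Amotl2 were found in all samples at levels of several CPM. Tead2 was at 7.79 and 11.5 CPM in the brain samples, 13.02, 16.2 and 10.6 in the liver samples and 24.9, 3.80 and 4.55 in the subcutaneous samples. Subcutaneous replicate 1 had the highest and the other 2 subcutaneous samples the lowest Tead2 level, so that the spread within this site covered all other samples. Amotl2 was at 10.6 and 7.08 CPM in the brain samples, 9.72, 10.5 and 6.93 in the liver samples and 6.28, 10.9 and 9.54 in the subcutaneous samples. All 3 sites overlapped for Amotl2.

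**Figure D1:**
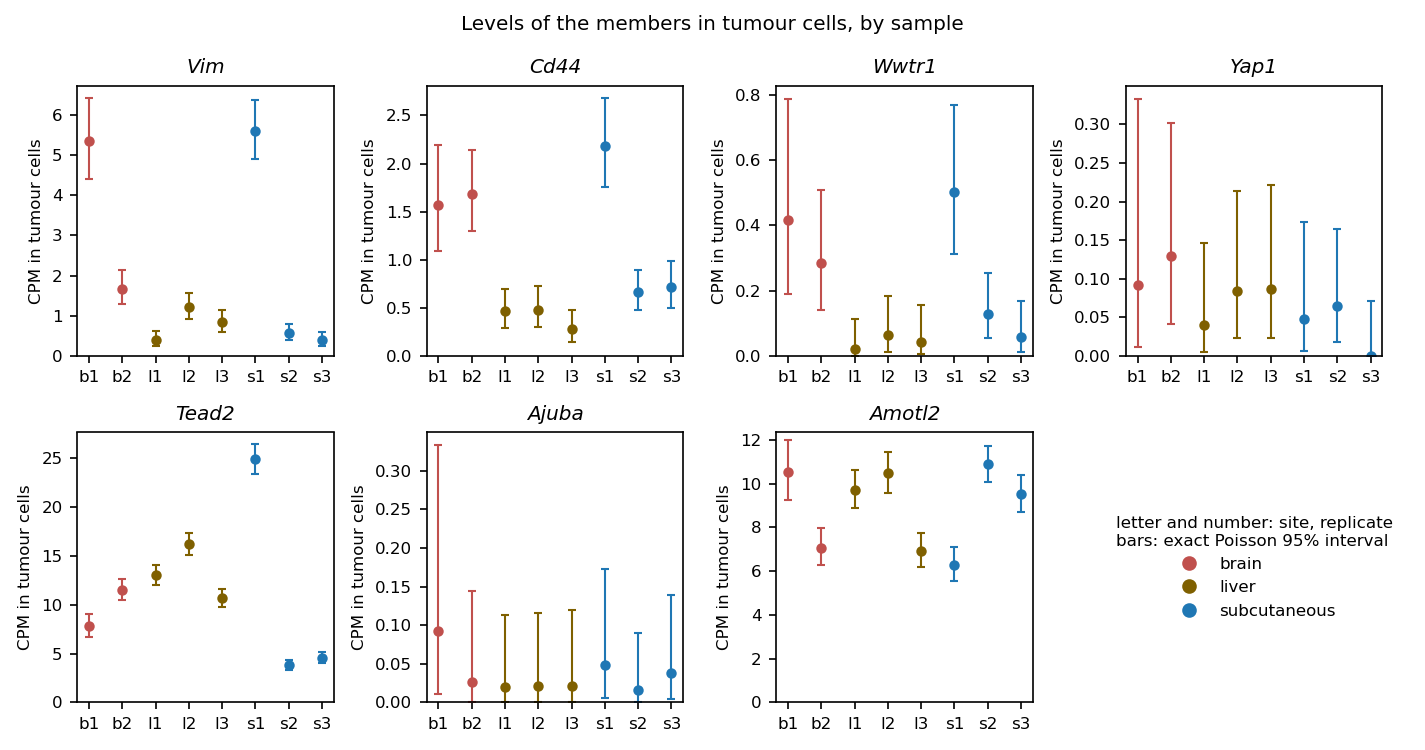
CPM of each gene in the summed tumour cells (y axis, separate scale per gene) for the 8 samples (x axis: b brain, l liver, s subcutaneous, with the replicate number). Points are samples and bars are exact Poisson 95% intervals. Vim is high in brain replicate 1 and subcutaneous replicate 1, Tead2 is high in subcutaneous replicate 1, and Amotl2 overlaps between all sites.

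Few tumour cells held a transcript of the 2 non-neuroendocrine markers. With every cell thinned to 3000 UMIs, and 1 or more UMIs counted, Vim was found in 110 of 33749 tumour cells (0.326%) and Cd44 in 88 (0.261%). The same counts were 986 cells (2.92%) for Tead2 and 874 cells (2.59%) for Amotl2. Of the Vim-positive cells, 44 came from subcutaneous replicate 1 (1.10% of its tumour cells) and 21 from brain replicate 1 (0.928%). The other 6 samples held 4 to 14 each. Without thinning, 3.18% of the tumour cells of brain replicate 1 and 2.14% of those of subcutaneous replicate 1 had a Vim UMI.

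Host cells gave a reference with a different order of genes. In the 4 samples with at least 50 cells below the host limit, Vim was at 469 and 369 CPM in the brain samples, 287 CPM in liver replicate 2 and 1778 CPM in subcutaneous replicate 1. Cd44 was at 43.2, 44.0, 36.5 and 110 CPM in the same order. Of the 55 such cells of liver replicate 2, however, 21 fell into a cluster with markers of the tumour cells, described with the clusters. The 34 left were fewer than the 50 cells set as the limit, with Vim at 490 CPM (376 to 627) and Cd44 at 62.2 CPM (26.9 to 123). In the other 3 samples 2 to 5 cells fell into that cluster. In each of these samples, the host level of Vim and Cd44 was above the tumour level. After thinning to 3000 UMIs, 85.7% of the host cells of subcutaneous replicate 1 had a Vim UMI against 1.10% of its tumour cells. Tead2 went the other way. It was at 5.47, 4.796, 0 and 6.97 CPM in host cells, lower than in tumour cells in each sample, although the host interval covered the tumour level in brain replicate 1 (3.43 to 8.28 CPM) and in liver replicate 2 (up to 16.8 CPM). Amotl2 was at 3.98, 7.99, 0 and 18.9 CPM in host cells, and its host level was above the tumour level in subcutaneous replicate 1 and below it in brain replicate 1. In brain replicate 2 the interval of the host level, 3.83 to 14.7 CPM, covered the tumour level, and in liver replicate 2 no Amotl2 UMI was found in host cells, with an upper limit of 16.8 CPM.

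Clustering of the 1370 host cells showed which cells carried the genes. Intervals are exact Poisson 95% intervals over the UMIs of a cluster and cover counting error only. Vim was high in vessel-wall, fibroblast-like, astrocyte-like and macrophage-like clusters and low in the microglia-like one. The 15 pericyte-like cells had Vim at 2581 CPM (2274 to 2918), the 61 endothelial-like cells at 1637 (1490 to 1794), the 63 fibroblast-like cells at 1271 (1136 to 1418) and the 37 astrocyte-like cells at 1051 (870 to 1259). The 312 microglia-like cells had Vim at 27.3 CPM (19.9 to 36.5). A macrophage-like cluster of 190 cells led by genes such as Ly6c2 and Chil1 had Vim at 1253 CPM (1191 to 1316), in 94 cells of brain replicate 1, 36 of brain replicate 2 and 52 of subcutaneous replicate 1. The same cluster held the highest Cd44 level, 172 CPM (150 to 197), found in 50.5% of its cells. Cd44 was not detected in the endothelial-like cells, where the upper limit of the interval was 13.2 CPM.

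The Yap-related genes were found mainly in vessel-wall, fibroblast-like and glial clusters. Wwtr1 was at 133 CPM (93.3 to 183) in the endothelial-like, 101 CPM (48.5 to 186) in the pericyte-like and 62.4 CPM (25.1 to 128) in the astrocyte-like cells, and no Wwtr1 UMI was found in the 190 macrophage-like or the 312 microglia-like cells. Yap1 was at 32.2 CPM (14.7 to 61.2) in the endothelial-like and 31.7 CPM (13.7 to 62.4) in the fibroblast-like cells. Ajuba was at 132 CPM (70.1 to 225) in the pericyte-like cells, from 13 UMIs. Tead2 was at 60.9 CPM (35.5 to 97.5) in the endothelial-like and 60.7 CPM (22.3 to 132) in the pericyte-like cells, and Amotl2 was at 71.3 CPM (30.8 to 140) in the astrocyte-like, 71.1 CPM (30.7 to 140) in the oligodendrocyte-like and 63.3 CPM (36.2 to 103) in the fibroblast-like cells. All fibroblast-like cells came from subcutaneous replicate 1, so their type and that sample cannot be told apart. A cluster of 73 cells below the host limit led by Sftpc, Krt8, Uchl1 and Stmn2 had markers of the tumour cells. No UMI of Vim, Cd44, Wwtr1, Yap1, Tead2 or Ajuba was found in it.

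**Figure D2:**
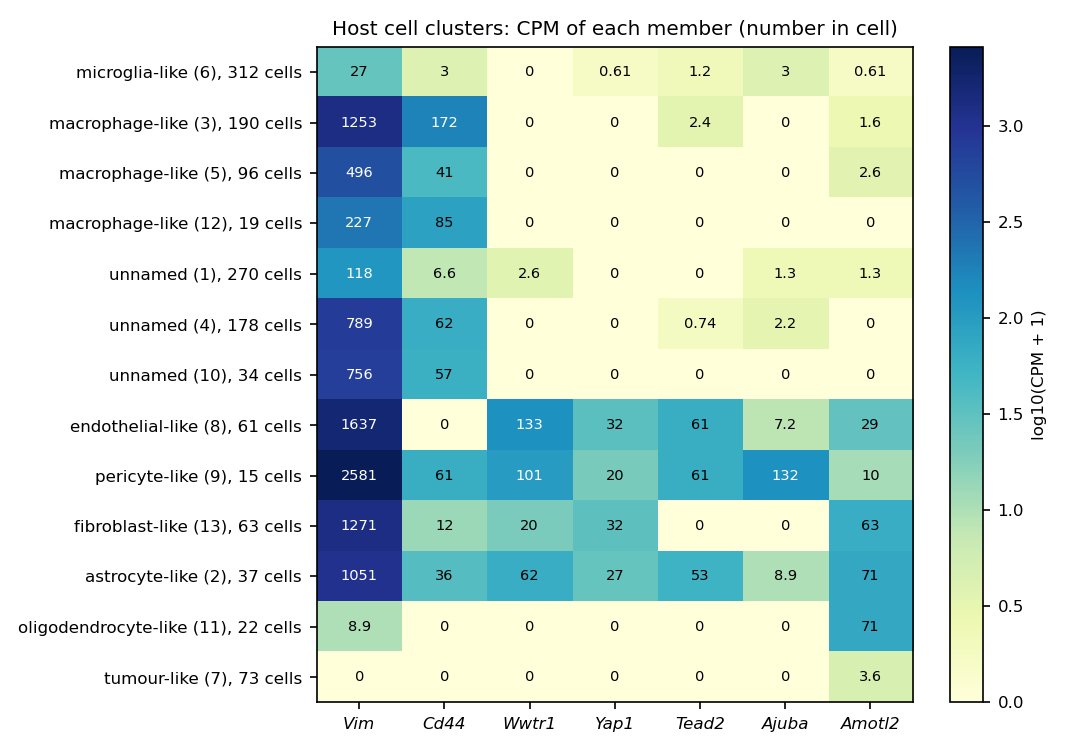
CPM of the 7 genes (columns) in 13 clusters of host cells (rows, with the cluster number and the number of cells). Colour is log10(CPM + 1) and the number in each field is the CPM. Vim exceeds 1000 CPM in the pericyte-like, endothelial-like, fibroblast-like and astrocyte-like clusters and in macrophage-like cluster 3, and is at 27 CPM in the microglia-like cluster.

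Since host cells held much more Vim, the host RNA present in the tumour cells was measured. Of 46 markers of macrophages, microglia, neutrophils, fibroblasts, pericytes and endothelial cells, 42 remained after 4 that all tumour samples carried were left out. Their summed level in tumour cells was 572 and 93.6 CPM in the brain samples, 8.67, 65.8 and 10.2 CPM in the liver samples and 78.6, 3.74 and 4.24 CPM in the subcutaneous samples. Of the 42, between 2 and 15 were at 0 in the tumour cells of a sample. Set against their level in the host cells of the same sample, this is a host RNA share of 2.13% in brain replicate 1, 0.441% in brain replicate 2, 0.845% in liver replicate 2 and 0.313% in subcutaneous replicate 1. Without the cells of the tumour-like cluster, the share in liver replicate 2 was 0.496%. That cluster held 0 Vim UMIs and no host marker in 20% or more of its cells. The Vim level carried into the tumour cells, the same to 3 digits, could therefore hardly change and is no check of the calculation. At these shares, host RNA would carry 10.0, 1.63, 2.43 and 5.57 CPM of Vim into the tumour cells of these samples. The measured tumour levels of Vim were 5.35, 1.68, 1.21 and 5.61 CPM, so that the carried level was above the measured one in brain replicate 1 and liver replicate 2 and within the counting error of the measured one in the other two. The calculation assumes that the host RNA in tumour cells has the make-up of the sequenced host cells.

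For Cd44 the same calculation gave 0.923, 0.194, 0.308 and 0.343 CPM against measured 1.57, 1.68, 0.481 and 2.18 CPM. The measured level was above the carried one in all 4 samples, though in liver replicate 2 the carried level lay within the interval of the measured one (0.305 to 0.722 CPM). For Wwtr1 host RNA would carry 0.207 of the 0.415 CPM measured in brain replicate 1 and 0.0282 of the 0.284 CPM in brain replicate 2. For Tead2 host RNA would carry at most 0.117 CPM and for Amotl2 at most 0.0848 CPM, against measured levels of 6.28 CPM or more for either gene in these samples. In tumour cells without any UMI of the 42 host markers, which were 529 of 2418 cells in brain replicate 1 and 3164 of 4150 in subcutaneous replicate 1, Vim was at 2.46 CPM in brain replicate 1 (8 UMIs) and 1.88 CPM in subcutaneous replicate 1. In the other samples it was at 0.203 to 0.948 CPM. Cd44 in these cells was at 1.23 and 1.74 CPM in the brain samples and 1.55 CPM in subcutaneous replicate 1. Tead2 was at 25.8 CPM in these cells of subcutaneous replicate 1, against 24.9 CPM in all its tumour cells.

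**Figure D3:**
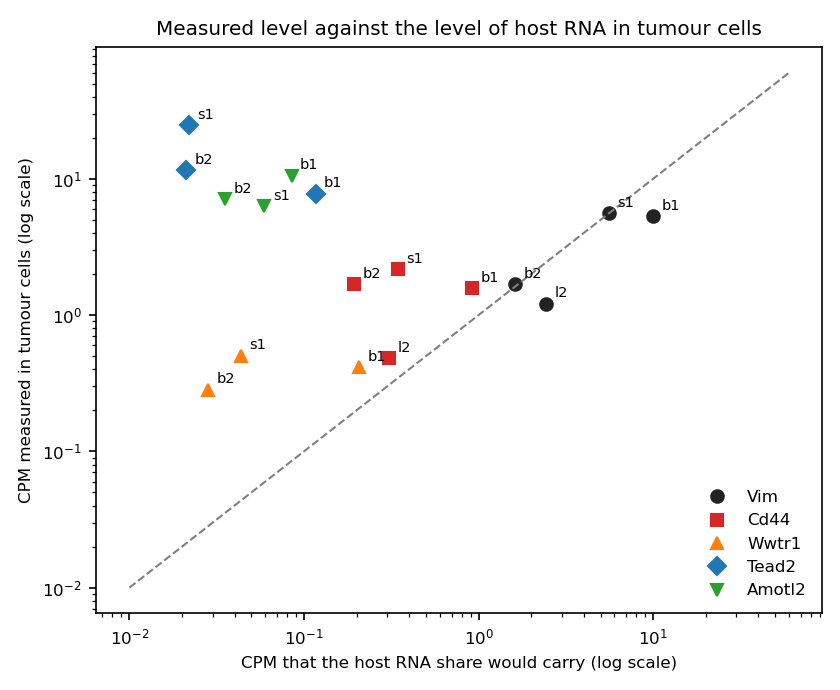
CPM measured in tumour cells (y axis, log scale) against the CPM that the host RNA share of the sample would carry (x axis, log scale) for 5 genes in the 4 samples with at least 50 cells below the host limit. The dashed line marks equal values, and points whose carried level is 0 are not drawn. The Vim points lie close to or below the line, the Cd44 points above it, and the Tead2 and Amotl2 points far above it.

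The sites were compared with edgeR's quasi-likelihood test on the summed tumour counts, in 1 model of all 8 samples, with Benjamini-Hochberg adjustment over 13931 genes. Vim, Cd44, Wwtr1, Tead2 and Amotl2 were tested, and Yap1 and Ajuba did not pass the filter on low counts. Cd44 was 1.86 log2 units (SE 0.54) higher in brain than in liver tumour cells (adjusted p = 0.0389), with both brain samples above all 3 liver samples. It was the only call among the 5 tested genes in the 3 comparisons. Between brain and liver 21.8% of all tested genes were called, so 1 call of 5 is near the background. The Cd44 call was lost in 9 of 22 alternatives, among them each fit without a brain or a liver sample, with adjusted p-values from 0.00147 to 0.216. Wwtr1 was 2.84 log2 units (SE 0.96) higher in brain than in liver with an adjusted p of 0.0637 in edgeR, and Vim 1.96 (SE 1.12) higher with an adjusted p of 0.248 in edgeR. In this comparison the brain and liver samples did not overlap for 3 of the 5 tested genes (Vim, Cd44, Wwtr1), all higher in brain. The groups did not overlap in that direction for 36.1% of all tested genes. In tumour cells without UMIs of the 42 host markers, Wwtr1 was at 0 to 0.276 CPM in brain (7 UMIs) and 0 to 0.0701 CPM in liver (3 UMIs). The 0 in brain is that of brain replicate 1, of which 529 cells remained. At so few UMIs the overlap of these samples cannot be read as a lost difference. In the tumour cells without UMIs of these markers, Vim was at 0.948 to 2.46 CPM in brain (32 UMIs) and 0.203 to 0.382 CPM in liver (43 UMIs). Cd44 was at 1.23 to 1.74 CPM in brain (48 UMIs) and 0.203 to 0.424 CPM in liver (42 UMIs). The share of all genes that did not overlap in these cells is not given here. The 42 markers hold no astrocyte gene, and astrocyte-like host cells had Vim at 1051 CPM. The part of astrocyte RNA in these levels was not tested.

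Between brain and subcutaneous tumour cells none of the 5 genes passed the edgeR threshold, while 15.1% of all tested genes did. The unadjusted p-values of the 5 genes were 0.396 or higher, so 0 of them were under 0.05, and DESeq2 called none of them either. The call count depended on subcutaneous replicate 1. Without it, 4 of the 5 were called higher in brain by edgeR: Vim (log2 fold change 2.80, adjusted p = 0.00647), Cd44 (1.24, adjusted p = 0.0168), Wwtr1 (1.80, adjusted p = 0.0476) and Tead2 (1.23, adjusted p = 0.00388). In that fit 4754 genes were called in all, against 2099 with the sample. For Tead2 this is a change of direction, from -0.18 (SE 0.79) with all samples. The host RNA share was 2.13% in brain replicate 1, 0.441% in brain replicate 2 and 0.313% in subcutaneous replicate 1. The part of host RNA in the Vim difference was not tested.

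Between liver and subcutaneous tumour cells 2.83% of genes and none of the 5 were called by edgeR. DESeq2 called none of the 5 either. Cd44 was 1.40 log2 units (SE 0.50) lower in liver with an unadjusted p of 0.0202 and an adjusted p of 0.180 in edgeR, and Wwtr1 2.22 (SE 0.89) lower with an unadjusted p of 0.0331 and an adjusted p of 0.225. The unadjusted p-values of the other 3 genes were 0.245 or higher. Without subcutaneous replicate 1, Tead2 was called higher in liver (log2 fold change 1.79, adjusted p = 0.00270 in edgeR). The liver and subcutaneous samples did not overlap for Cd44, lower in liver, as was so for 21.7% of all tested genes. Amotl2 had the smallest differences and errors, -0.16 (SE 0.28) for brain over liver, -0.03 (SE 0.28) for brain over subcutaneous and 0.14 (SE 0.25) for liver over subcutaneous. The 3 comparisons share samples in pairs and are not independent.

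**Figure D4:**
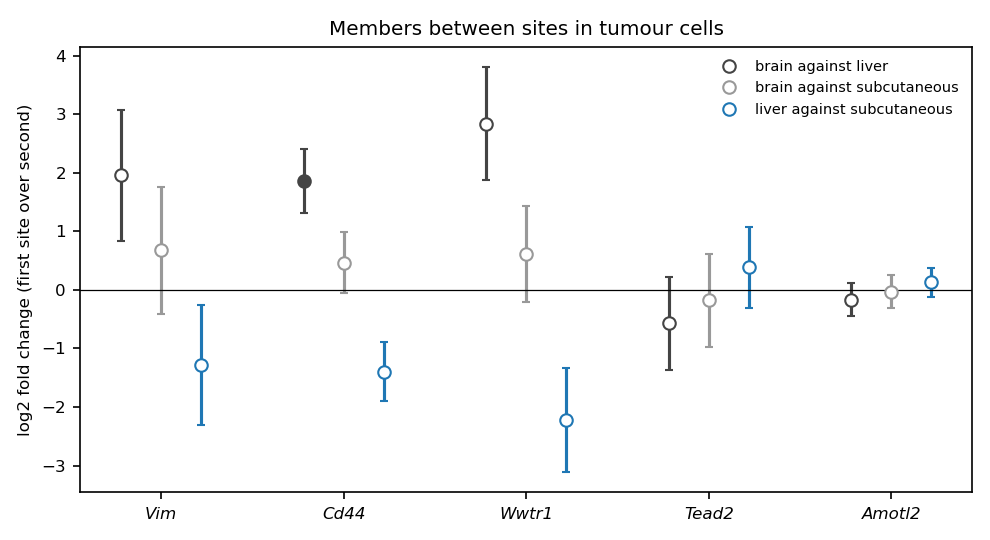
Log2 fold change of the first over the second site in tumour cells (y axis) for the 5 tested genes (x axis), for brain against liver, brain against subcutaneous and liver against subcutaneous. Bars are the SE, and a filled point marks an adjusted p under 0.05, which Cd44 in brain against liver alone reached.

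Of the 8 Tead and Vgll genes (Vgll proteins also bind Tead factors), 6 were tested, and 2, Tead3 and Tead4, were lower in brain than in both other sites, where 21.8% (liver) and 15.1% (subcutaneous) of all tested genes were called. Tead3 was at 0.922 and 0.543 CPM in the brain samples, 2.25, 1.69 and 2.20 in the liver samples and 1.53, 2.79 and 3.06 in the subcutaneous samples. Its log2 fold change was -1.63 (SE 0.38) against liver (edgeR adjusted p = 0.0172) and -1.79 (SE 0.38) against subcutaneous (adjusted p = 0.0186). Tead4 was at 0.645 and 0.517 CPM in brain, 1.92, 1.90 and 1.79 in liver and 1.20, 1.68 and 1.56 in subcutaneous samples, 1.82 log2 units (SE 0.29) lower in brain than in liver in edgeR (adjusted p = 0.00370). The brain samples were the lowest for both genes. The share of all tested genes with this order is not given here, so the order adds no support to the calls. Against liver, Tead3 lost the call in each fit without a brain sample and without liver replicate 1. Against subcutaneous, Tead3 and Tead4 both lost the call in each fit without a brain sample and without subcutaneous replicate 2 or 3. Tead1 was at 18.7 to 39.0 CPM over all samples with no call.

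Among the 6 LIM-domain and angiomotin genes, 5 were tested and 2 called between brain and liver, against 21.8% of all tested genes. Amot, the founding angiomotin, was lower in brain: 7.38 and 7.96 CPM against 17.0, 14.3 and 13.6 CPM in liver, which is -1.08 on the log2 scale (SE 0.15, adjusted p = 0.00249 in edgeR). Wtip, a relative of Ajuba, was 2.97 log2 units (SE 0.72) higher in brain than in liver (adjusted p = 0.0193), at levels of 0.922 and 0.775 CPM against 0.101, 0.0836 and 0.108 CPM. That call was lost in tumour cells without host marker UMIs (edgeR adjusted p = 0.0887) and in each fit without a brain or a liver sample. Limd1, the other Ajuba relative, was at 30.8 to 43.9 CPM with no call.

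**Figure D5:**
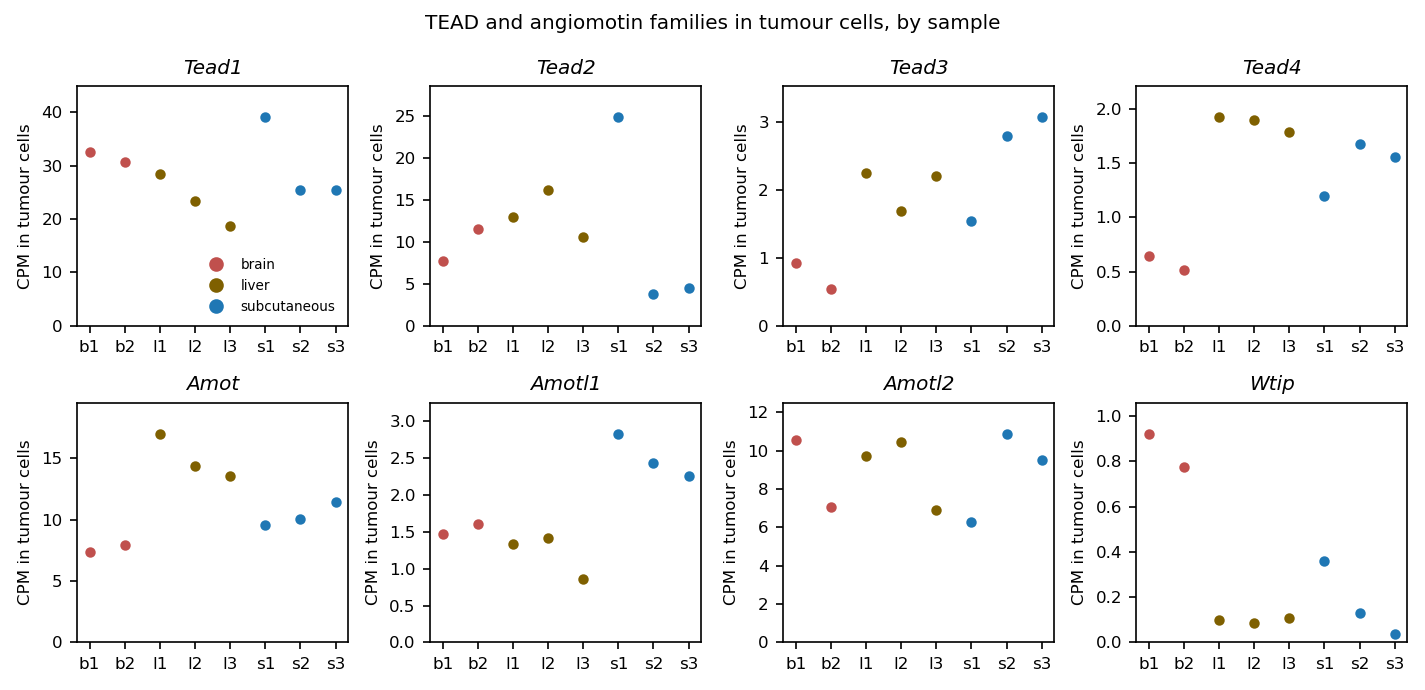
CPM in tumour cells (y axis from 0, separate scale per gene) of Tead1 to Tead4, Amot, Amotl1, Amotl2 and Wtip in the 8 samples (x axis: b brain, l liver, s subcutaneous, with the replicate number). Tead3, Tead4 and Amot are lowest in the 2 brain samples, and Tead2 is highest in subcutaneous replicate 1.

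Of 18 Hippo kinases and upstream regulators, 17 were tested between brain and liver. Of these, 2 were higher in brain, Taok3 (9.95 against 4.10 CPM, log2 fold change 1.16, SE 0.18, edgeR adjusted p = 0.00324) and Wwc2, and 3 were lower, Fat1, Fat4 and Mob1b. These are 5 of 17, where 21.8% of all tested genes were called. Fewer of them, and fewer of all tested genes, were called in each fit without a brain sample, which leaves 1 sample in that group. Leaving out liver replicate 2 gave 2 higher and 2 lower of 17, in a fit that called 11.1% of all genes. The median log2 fold change of the 17 was -0.11 against 0.00 for all tested genes. Lats1, the main kinase on Yap1, was at 11.1 to 17.1 CPM with no call, and Lats2 at no more than 0.231 CPM.

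Of 22 target genes of Yap1 and Taz, 13 were tested between brain and liver. Higher in brain were 4: Gadd45a, a stress-response gene (116 against 31.6 CPM, log2 fold change 1.76, SE 0.18, edgeR adjusted p = 0.000864), the growth factor Tgfb2 (18.7 against 2.20 CPM, 2.98, SE 0.51, adjusted p = 0.00650), Asap1 and Arhgef17. Lower were Fjx1 and Nuak2, and 7 did not pass, where 21.8% of all tested genes were called. The best known targets were hardly detected: Ctgf was at 0 to 0.181 CPM, Ankrd1 at 0 to 0.173 CPM and Cyr61 at 0.413 to 1.49 CPM. Amotl2, itself on this list, is described above. Fewer targets, and fewer of all tested genes, were called in each fit without a brain sample, which leaves 1 sample in that group. The counts were 2 higher and 0 lower of 13 without liver replicate 2, in a fit that called 11.1% of all genes.

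Genes of the mesenchymal transition gave 5 higher and 3 lower in brain than in liver among 15 tested, beside 21.8% called over all genes. Higher were the repressors of E-cadherin Zeb1 (25.2 against 10.4 CPM), Zeb2 (23.2 against 7.59 CPM) and Snai2, with Lgals1 and S100a4. Lower were E-cadherin (Cdh1, 11.1 against 29.2 CPM, log2 fold change -1.52, SE 0.17, edgeR adjusted p = 0.00104), Epcam and the transcription factor Twist1, which is itself counted as a mesenchymal gene. The median of the 15 was 0.39 log2 units. Fewer of them, and fewer of all tested genes, were called in each fit without a brain sample, which leaves 1 sample in that group. Without liver replicate 2, 3 higher and 2 lower were called, in a fit that called 11.1% of all genes. The splicing factors Esrp1 and Esrp2, which set the isoform of Cd44, were both lower in brain than in liver, Esrp1 at 26.1 against 66.3 CPM (log2 fold change -1.46, SE 0.23, edgeR adjusted p = 0.00394). Counts from the 3' end do not give the Cd44 isoform.

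The intermediate filaments, the family of Vim, gave 4 higher and 1 lower in brain than in liver among 14 tested, beside 21.8% called over all genes. Without subcutaneous replicate 1 they gave 7 higher and 3 lower, in a fit that called 32.9% of all genes. Prph, the filament of peripheral neurons, was at 179 against 52.8 CPM (log2 fold change 1.65, SE 0.17, edgeR adjusted p = 0.000884) and Des, the muscle filament desmin, at 39.3 against 4.65 CPM (2.96, SE 0.56, adjusted p = 0.0104). The simple-epithelium keratin Krt8 was at 199 against 410 CPM (-1.15, SE 0.14, adjusted p = 0.00149). Prph, Des and Krt8 were called in the same direction in tumour cells without host marker UMIs (edgeR adjusted p of 0.0143 or lower). Gfap, the astrocyte filament, was also called higher in brain, where the summed level of the 6 astrocyte markers, Gfap among them, was 85.5 and 66.7 CPM in tumour cells against 17.1 to 20.9 CPM in liver. The part of astrocyte RNA in that call was not tested. Of 25 genes of a non-neuroendocrine list, 20 were tested, with 3 higher and 3 lower in brain than in liver, beside 21.8% called over all genes. Without subcutaneous replicate 1, 7 of 19 were higher and 5 lower, in a fit that called 32.9% of all genes. Fewer of the list, and fewer of all tested genes, were called in each fit without a brain sample, which leaves 1 sample in that group. Without liver replicate 1, 1 was higher and 1 lower of 20, in a fit that called 12.5% of all genes. Without liver replicate 2, 2 were higher and 1 lower, in a fit that called 11.1%. Against subcutaneous, 3 were higher and 0 lower with all samples, beside 15.1% called over all genes. They were 13 higher and 2 lower of 19 without subcutaneous replicate 1, in a fit that called 34.3% of all genes. At most 1 was higher in each fit without a liver sample or another subcutaneous sample. Those fits called 4.75% to 12.7% of all genes. Fewer of the list, and fewer of all tested genes, were also called in each fit without a brain sample, which leaves 1 sample in that group.

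Cells that held Vim were then compared with those that did not, within each sample, on thinned counts scaled by their totals. Vim-positive tumour cells had a higher summed level of host markers. Of 11378 genes tested by edgeR, 294 (2.58%) were called, 285 of them higher in the 110 Vim-positive cells. The filter on low counts partly sets this direction. The highest fold changes were those of Serpinh1, Col1a2, Col1a1 and Acta2 (chosen after their values were seen), with Col1a2 at 93.9 against 0.198 CPM (log2 fold change 8.31, SE 0.72). Collagen genes and Acta2 are made by fibroblasts and pericytes. The summed level of the 46 host markers was 2318 CPM in Vim-positive against 106 CPM in Vim-negative cells. Some genes have few UMIs in the negative cells, such as Col1a2 with 20, Col1a1 with 13 and Acta2 with 7. They pass the filter on low counts only through the positive cells and can then only come out higher. The counts of higher and lower genes in the Vim and Cd44 splits are thus no evidence of a direction. No count over the host markers or lists is given for these splits. In tumour cells without UMIs of the 42 host markers, 52 Vim-positive cells remained and 24 genes were called. Among these, named after their values were seen except Des, were Anxa2 (log2 fold change 4.68, SE 0.71, edgeR adjusted p = 8.45e-07), S100a10 (3.79, SE 0.86, adjusted p = 0.0241), the partner of Anxa2, and Des (2.15, SE 0.50, adjusted p = 0.0321). Anxa2 and S100a10 had 9 and 5 UMIs in the positive cells and were at 1.74 and 1.16 CPM in the negative cells. Genes that low can pass the filter on low counts through the positive cells alone and then only come out higher. Their adjusted p-values are thus no evidence of a direction. Mycl, which the tumour cell limit uses, was lower by 0.61 log2 units (SE 0.12) in the 52 cells. The 42 host markers hold no astrocyte gene. The 6 astrocyte markers summed to 89.7 CPM in these 52 cells against 36.9 CPM in the negative cells. Of the 6, 5 were at 0 in the positive cells. The part of astrocyte RNA in these differences was not tested.

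Among the other members, none was called in the Vim-positive cells by edgeR on totals. Cd44 was 2.56 log2 units (SE 0.99) higher with an unadjusted p of 0.0186 and an adjusted p of 0.328, and its adjusted p was 0.00299 with DESeq2. Tead2 was at -0.83 (SE 0.76) and Amotl2 at 0.58 (SE 0.71). Scaling by TMM factors, which had been planned, gave 255 higher and 295 lower genes, with the median gene at -0.41 log2 units. Called genes fell to 117 without subcutaneous replicate 1, which held 44 of the positive cells.

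Cd44-positive tumour cells showed host genes and tumour cell genes side by side. Of 11261 genes tested, 279 (2.48%) were called, 251 higher and 28 lower in the 88 positive cells. As in the Vim split, the filter on low counts partly sets these directions. A gene with few UMIs in the negative cells, such as Cd14 with 48, can pass it through the positive cells and then only come out higher. The macrophage gene Cd14 led by fold change (87.1 against 0.475 CPM, log2 fold change 7.11, SE 0.59), and Vim was higher by 3.36 (SE 0.71, edgeR adjusted p = 0.000869), at 26.5 against 1.54 CPM. Without subcutaneous replicate 1 that call was lost (edgeR adjusted p = 0.378). The summed level of the 46 host markers was 1091 CPM in positive against 111 CPM in negative cells. In tumour cells without UMIs of the 42 host markers, 65 positive cells remained and 114 genes were called, while Vim had too few UMIs to be tested. There the matrix protein Sparc was higher by 5.37 log2 units (SE 0.36, edgeR adjusted p = 1.39e-43). S100a6 (2.31, SE 0.39), Lgals1 (1.35) and Prph (1.75, SE 0.27) were also higher. The 42 host markers hold no gene of astrocytes or oligodendrocytes, and Hes5 (113 against 7.35 CPM) and Cspg5 (56.4 against 3.64 CPM), both among the leading genes of the astrocyte-like host cluster, were also higher in these 65 cells (chosen after their values were seen). Sparc, at 2.35 CPM in the negative cells, Hes5 and Cspg5 can have passed the filter on low counts through the positive cells alone. Such genes can only come out higher, so their values are no evidence of a direction. The 6 astrocyte markers summed to 267 CPM in these 65 cells, with 2 of the 6 at 0, against 36.5 CPM in the negative cells. The 6 oligodendrocyte markers summed to 138 against 77.3 CPM, with 3 at 0 in the positive cells. The part of brain cell RNA in these differences was not tested. Hmmr, a further hyaluronan receptor, was higher by 1.98 (SE 0.38, adjusted p = 6.66e-05). Epcam was lower by 0.79 log2 units (adjusted p = 0.0194 in edgeR) and Krt7 by 1.25 (adjusted p = 0.00275), and Mycl, which the tumour cell limit uses, was at -0.98 (SE 0.13).

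Tead2 and Amotl2 did not differ by the threshold in the Cd44-positive cells (0.11, SE 0.73, and -0.16, SE 0.93). With TMM factors 175 genes were higher and 692 lower, with the median gene at -0.49 log2 units. Called genes were 142 without subcutaneous replicate 1. A cell with 1 transcript of a rare gene and a cell with none can hold the same amount, so both splits compare detection and not 2 cell types.

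The splits by Tead2 and Amotl2, added after the levels had been seen, gave other genes. The 986 Tead2-positive cells had 482 genes higher and 521 lower of 11560 tested (8.68% called). Higher were the keratins Krt8 (571 against 348 CPM, log2 fold change 0.78, SE 0.05), Krt7 (540 against 365 CPM, 0.56, SE 0.05) and Krt18, and the neurofilaments Nefm (1.48, SE 0.29) and Nefl (1.12, SE 0.27). Lower were Des (-1.57, SE 0.30), Prph (-0.71, SE 0.11) and Ina (-0.22, SE 0.07). All these had an adjusted p of 0.0242 or lower in edgeR. Host markers had a summed 93.3 CPM in positive against 114 CPM in negative cells. None of the 9 tested target genes of Yap1 and Taz was called by edgeR or by DESeq2 (1 at an unadjusted p under 0.05), nor were Amotl2 (0.00, SE 0.33) and Vim (-0.51, SE 0.67). With TMM factors 314 genes were higher and 797 lower.

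Amotl2-positive cells, 874 in all, differed least. Of 11954 genes, 36 were higher and 9 lower (0.376% called), and with TMM factors 27 and 176. Among the higher genes, chosen after their values were seen, were Klf4 (24.0 against 11.1 CPM, log2 fold change 1.06, SE 0.23, edgeR adjusted p = 0.00126), Dusp8 (0.78, SE 0.14), Dusp10 (0.68, SE 0.17), Tnfrsf12a (0.64, SE 0.13) and Atf3 (0.47, SE 0.11). In tumour cells without UMIs of the 42 host markers Dusp10 and Atf3 lost the call (edgeR adjusted p = 0.116 and 0.0652). Of the 11 other target genes of Yap1 and Taz tested, none was called by edgeR or by DESeq2 (2 at an unadjusted p under 0.05). Epcam was higher by 0.20 (SE 0.04) and Prph lower by 0.41 (SE 0.11). Haemoglobin Hba-a1 was lower (7.63 against 54.4 CPM), as it was in Tead2-positive cells (4.39 against 54.7 CPM). The 5 erythroid markers summed to 852 CPM in the tumour cells of liver replicate 2 and to at most 11.3 CPM in the other 7 samples, and their part in these differences was not tested.

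The genes most alike over the 8 samples, by Pearson r of log2(CPM + 1) among 9594 genes with a mean of at least 5 CPM, differed by member. For Vim the nearest was Lyz2, a macrophage gene (r = 0.97), at 51.3 and 6.79 CPM in the brain samples and 21.03 CPM in subcutaneous replicate 1 and at 0.154 to 2.82 CPM elsewhere, followed by 0610010K14Rik and Ube4a. For Cd44 they were Frmd4b (r = 0.99), Tppp3 and the homeobox gene Msx1 (r = 0.99, 3.78 to 21.9 CPM). For Wwtr1 they were Zfp367, Mcur1 and Pdcd4 (r = 0.96 to 0.97). For Tead2 they were Cox7c, Cox6b1 and Vwf (r = 0.98 each), Vwf being the endothelial clotting factor gene, at 32.9 CPM in subcutaneous replicate 1 and 7.17 and 8.88 CPM in the other subcutaneous samples. For Amotl2 they were Srp54a, Fzd3 and Focad (r = 0.92 to 0.94). These values describe 8 samples that share a line and 3 sites.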

How the data were processed

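The deposited UMI counts per gene and cell came from the authors' use of Cell Ranger and STAR on mm10, per the submitters' processing notes, and the matrix header gives software version 3.0.0. Intron and annotation settings are not given in the sources used here. Kept cells had 500 or more detected genes and mitochondrial UMIs of no more than 10%. Counts of tumour cells were summed per sample, 21689091 to 62047017 UMIs. Sites were compared with edgeR 4.0.16 (quasi-likelihood, robust, TMM, R 4.3.3), and DESeq2 1.42.0 was an alternative. The threshold was an adjusted p of 0.05. Host cells were clustered with scanpy 1.11.5, and clusters were named from marker lists by a rule extended after the first clusters were seen. No doublet caller was run. Fits without cells holding host marker UMIs stand in for one.

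The splits were to be scaled by TMM. On simulated unchanged counts TMM gave 200 false calls for Vim and 374 for Cd44 against 2 and 0 with totals, so totals were used. This was decided after the real TMM results had been seen. With a simulated rise of 200 of the genes, totals gave 352 and 373 false calls for Tead2 and Amotl2 against 44 and 134 with TMM, so these splits are less certain.

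The 7 genes and the gene lists were chosen with earlier results of these data known. From each list up to 4 called genes per direction with a mean of at least 5 CPM were named by largest fold change. Genes under 5 CPM and those said to be chosen after their values were seen fall outside that rule. Genes called below 5 CPM (Tead3, Tead4, Wtip, Wwc2, Fat4, Snai2, Gfap) were also named after their values were seen. Some genes of the lists are not reported here.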

Additional observations from a re-analysis of the deposited data

How the results depend on the processing

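Of 226 recomputed main results 155 stayed within 1.5 times or 1 error of the reported value and 71 moved, and of 2382 values of single genes 2007 kept direction and side of the threshold, 351 lost the call, 14 gained one and 10 changed direction. The number of the 5 tested members called between brain and liver, 1, became 0 with a mean of at least 5 CPM, after thinning, with a tumour limit of 0.5% and with a replicate block, 2 with a limit of 0.1% and 3 with those 2 sites alone. Called genes became 1614 (brain against liver) and 1107 (brain against subcutaneous) with a mean of at least 5 CPM, 728 with brain and subcutaneous alone, and 1056 for liver against subcutaneous by DESeq2. The replicate block gave 1378 for brain against subcutaneous and 229 for liver against subcutaneous. Same-numbered samples correlated between -0.127 and 0.250 in their deviations, so the numbers were not taken as pairs. Without 1 sample, members called ranged from 0 to 3, 0 to 4 and 0 to 1, genes from 1112 to 4557, 383 to 4754 and 33 to 1024 (brain against liver, brain against subcutaneous, liver against subcutaneous), and split calls from 117 to 293 (Vim), 142 to 283 (Cd44), 750 to 967 (Tead2) and 31 to 49 (Amotl2). Vim split calls were 550 with TMM, 172 in non-cycling cells, 87 with the 0.5% limit, 837 unthinned, and 24 and 13 without cells holding UMIs of 42 and of 46 host markers. Cd44 split calls were 867, 148, 149, 621, 114 and 101 in the same order, and 18 with at least 2 UMIs. Tead2 split calls were 534 by DESeq2, 88 with at least 2 UMIs, 556 in non-cycling cells, 2155 unthinned and 525 without the 46 host markers. Amotl2 split calls were 21 by DESeq2, 203 with TMM, 0 with at least 2 UMIs, 19 in non-cycling cells, 12 with the 0.5% limit and 153 unthinned. With host cells taken below 0.2%, Vim was at 442.5 CPM in brain replicate 1, 109 in liver replicate 2 and 1326 in subcutaneous replicate 1, and Cd44 at 12.1 and 84.1 CPM in the last pair of samples. Without the tumour-like cluster, a choice made after seeing the data, Vim was at 490 CPM in the host cells of liver replicate 2. With a call in the main or the recomputed fit, directions changed, among others, for Tead2 between brain and subcutaneous and for Ifitm3 in the Vim split. Tead2 was at 1.23 when subcutaneous replicate 1 was left out, with -0.57 as the lowest value over the samples left out. Ifitm3 was at -0.13 with the 0.5% limit, and at -2.18 and -1.78 without the 42 and 46 host markers. For Ifitm3 and Tead2 the cause was not tested. With at least 2 UMIs the Cd44 split rests on 7 positive cells with 21000 UMIs, of which Vim, Cav2 and Hmmr had 0 and Lgals1 and Prph 1 each. Their fitted values there, -7.32, -9.88, -10.58, -0.90 and -1.58 in this order (edgeR adjusted p = 0.857 for each), follow from so few UMIs and measure no fold. In the Tead2 split with at least 2 UMIs, Nefl, with 5 UMIs in positive cells, was at -0.67 (edgeR adjusted p = 0.765).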
